A study of Mus musculus with 32 samples.

Results

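Cholesterol and fatty acid synthesis in the tendon assembloids was followed through 27 genes: 18 enzymes of sterol synthesis, the sterol carrier Stard4, the regulators Srebf1 and Srebf2, and 6 enzymes of fatty acid synthesis. They were taken as a fixed list of mouse symbols and matched to the Ensembl identifiers of the count files. Each of the 27 matched exactly 1 of the 25700 genes counted, and all 27 passed the filter on low counts in every comparison.

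An assembloid is a mouse tail tendon explant (the core, the load-bearing tissue) clamped inside a collagen-1 hydrogel that stands for the tissue around a tendon. Cores came from B6.129S2-Il6tm1Kopf/J mice, genotype Il-6-/- (labelled KO) or Il-6+/+ (labelled WT), and were sequenced in 5 groups of 4 libraries: KO cores with fibroblasts in the hydrogel, KO cores in a cell-free hydrogel, WT cores with macrophages, WT cores with fibroblasts, and WT cores in a cell-free hydrogel. The hydrogels of fibroblast assembloids were sequenced apart in 2 groups of 6 libraries, one around KO cores and one around WT cores. The fibroblasts, which the labels call tendon progenitors, were isolated from wildtype Achilles tendons in both, so a hydrogel labelled KO surrounded a KO core but was seeded with wildtype cells. All assembloids were cultured for 7 days in DMEM/F12 with 10% serum and ascorbic acid, and per the study's methods the co-culture medium also held macrophage-colony stimulating factor. The mice were males and females of 12 to 15 weeks. A core library pooled 20 to 24 explants of 2 cm from a single mouse. A hydrogel library pooled 2 hydrogels that held seeded cells mixed from 6 mice, at passage 2 to 4, together with cells from the core that had moved into it. The origin of the macrophages was not stated in the labels or methods read.

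The 32 libraries held 20360289 to 59860703 estimated counts. Il6, the targeted gene, did not separate the genotypes as labelled: it had 10.5, 15.3, 17.2 and 37.1 CPM (counts relative to the library total, scaled between libraries by TMM) in fibroblast cores labelled KO, against 6.19, 11.8, 4.96 and 9.31 CPM in WT fibroblast cores. The log2 fold change was 1.30 (adjusted p = 0.48), and Il6 was not called in cell-free cores (0.79) either. It was not called between hydrogels (1.03), but their seeded cells were wildtype around either core, so this does not show the core genotype. The study also counted seeded cells inside cores, so fibroblast cores labelled KO may hold wildtype cells. Counts over a whole gene do not tell a disrupted transcript from an intact one, and the genotypes below are therefore those of the labels. IL-6 protein, which the study assayed in culture supernatants, was not analysed here. The cores labelled as cultured with macrophages did not have a higher summed level of 10 macrophage markers than WT cell-free cores. The sum ran from 4909 to 11194 CPM in macrophage cores, against 9427 to 13259 CPM in WT cell-free cores. In WT fibroblast cores it ran from 8599 to 9180 CPM. All 10 fibroblast and tenocyte markers were above 1 CPM in every library, and the lowest single value was 5.98 CPM of Scx, a tendon transcription factor. Of 10 adipocyte markers, 4 to 6 per group, among them Cidec and Plin1, stayed under 1 CPM in every library of the group. In bulk RNA, fewer cells of a type and less RNA per cell cannot be told apart.

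Cholesterol is built from acetyl-CoA: the mevalonate arm makes isoprenoid units, farnesyl units are joined to squalene, squalene is closed to lanosterol, and lanosterol is trimmed to cholesterol. The transcription factors SREBP-1 and SREBP-2, encoded by Srebf1 and Srebf2, sit in the endoplasmic reticulum as precursors. When membrane sterol is low they travel with SCAP to the Golgi, are cut and enter the nucleus, where they switch on sterol and fatty acid synthesis genes together with NF-Y and Sp1. Of the 27 genes, 21 had a promoter window in RefSeq (GRCm38.p6, 250 bases before to 50 bases after a transcription start). In these windows 4 motifs were searched on both strands. CCAAT, the NF-Y motif, lay in at least 1 window of 18 of the 21 genes, against 41.1% of 27025 genes with windows. GGGCGG, the Sp1 motif, lay in windows of 17 of the 21 genes, against 38.2% of all genes. The sterol regulatory element TCACNCCAC was found only for Hmgcs1, 1 of 21, against 1.44% of all genes, and the E-box CACGTG for 3 of 21, against 8.09%. No motif contains another, and a match is a string of letters, not a measured binding site. The files were made on GRCm39, so these window coordinates belong to another build than the counts. The windows of 3 enzymes that were lower in macrophage cores than in both other groups are shown as examples. Whether motifs relate to the fold changes was not tested. Capitals mark TCACNCCAC and CCAAT, or their reverse complements.
Hmgcs1, chr13:119690101-119690400, + strand: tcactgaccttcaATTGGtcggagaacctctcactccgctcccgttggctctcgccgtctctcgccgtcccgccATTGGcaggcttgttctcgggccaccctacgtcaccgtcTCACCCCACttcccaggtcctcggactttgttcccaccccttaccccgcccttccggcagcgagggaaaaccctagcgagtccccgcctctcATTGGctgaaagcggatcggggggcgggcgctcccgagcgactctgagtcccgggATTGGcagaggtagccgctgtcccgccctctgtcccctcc
Cyp51, chr5:4104648-4104947, - strand: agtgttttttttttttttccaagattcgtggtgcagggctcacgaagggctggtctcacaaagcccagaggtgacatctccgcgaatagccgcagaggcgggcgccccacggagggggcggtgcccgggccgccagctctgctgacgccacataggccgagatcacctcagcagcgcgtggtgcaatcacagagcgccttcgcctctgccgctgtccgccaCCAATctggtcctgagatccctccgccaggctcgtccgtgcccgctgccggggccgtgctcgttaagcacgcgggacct
Msmo1, chr8:64733529-64733828, - strand: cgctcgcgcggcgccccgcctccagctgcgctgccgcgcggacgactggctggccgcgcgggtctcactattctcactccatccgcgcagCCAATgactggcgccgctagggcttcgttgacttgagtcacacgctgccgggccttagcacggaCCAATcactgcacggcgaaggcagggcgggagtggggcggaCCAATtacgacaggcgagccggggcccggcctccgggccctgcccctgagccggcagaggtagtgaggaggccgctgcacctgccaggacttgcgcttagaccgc
The Hmgcs1 window holds 1 sterol regulatory element and 4 CCAAT boxes, the Cyp51 window 1 CCAAT box and the Msmo1 window 3.

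Relative to length, Scd2, a stearoyl-CoA desaturase, had the highest level of the 27 genes in WT cell-free cores, with 101 ± 13.5 CPM per kb of exon (SD, n = 4). Hmgcs1 followed with 49.8 ± 6.44 CPM per kb, Scd1 with 46.9 ± 10.9 and Acly with 45.5 ± 2.11, and these neighbours did not differ beyond their spread. The lowest were Acaca with 5.30 ± 0.139, Tm7sf2 with 4.74 ± 0.627 and Idi1 with 3.63 ± 0.462 CPM per kb. Lengths are exon unions of GENCODE vM21, another annotation than the one the counts were made with. Scd1 and Scd2 are close paralogs, so reads may have been split between them by the pseudoalignment.

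The clearest pattern was in cores cultured with macrophages, where the sterol enzymes were lower than in cores with fibroblasts and than in cell-free cores. The group mean of WT macrophage cores was the lowest of the 7 groups for 25 of the 27 genes. Summed over the 18 sterol enzymes, the macrophage cores averaged 877 ± 146 CPM, against 1518 ± 72.8 CPM in WT fibroblast cores and 1327 ± 125 CPM in WT cell-free cores (SD, n = 4 each). On this TMM scale the highest macrophage core, at 1090.0 CPM, lay below the lowest fibroblast core at 1421 CPM and the lowest cell-free core at 1193 CPM. The sums were not computed on library totals. The TMM factor was 1.11 in this macrophage core and 0.978 in this cell-free core. A separation from cell-free cores without TMM is therefore not shown. Summed over the 6 fatty acid enzymes, macrophage cores averaged 1091 ± 237 CPM, against 1862 ± 115 CPM in fibroblast cores and 1462 ± 165 CPM in cell-free cores. Here the macrophage cores lay apart from the fibroblast cores but overlapped the cell-free cores, whose lowest library had 1228 CPM.

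**Figure D1:**
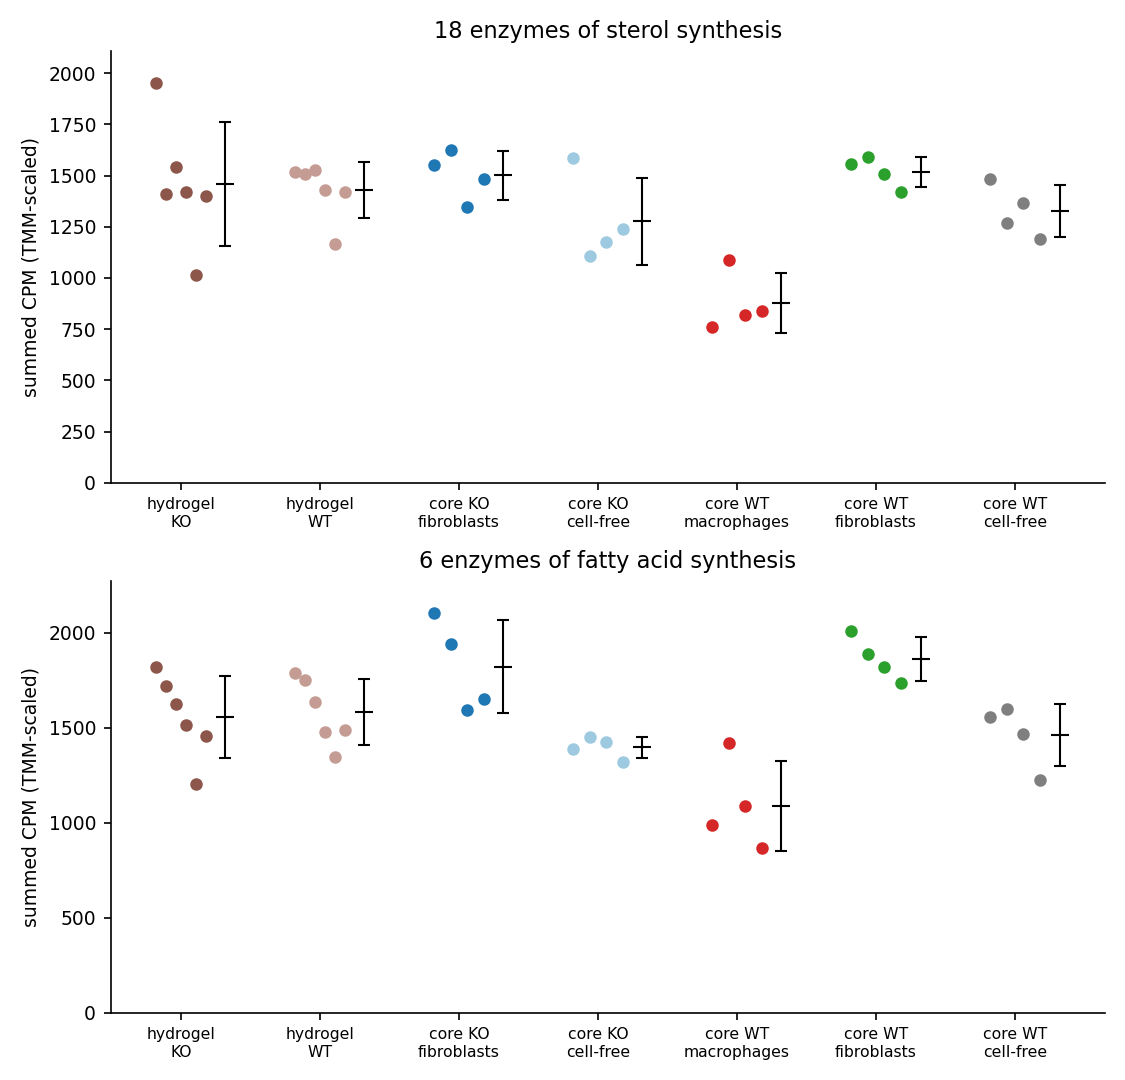
Summed TMM-scaled CPM of the 18 sterol enzymes (top) and the 6 fatty acid enzymes (bottom) in each library (points) of the 7 groups, with the mean and SD beside each group. On this TMM scale the 4 macrophage cores have 759 to 1090 CPM of sterol enzymes and lie below all libraries of the other WT cores. The sums were not computed on library totals.

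Which genes separated macrophage cores from fibroblast cores was tested with edgeR's quasi-likelihood test over all genes. Of the 27 genes, 23 were lower in macrophage cores at an adjusted p under 0.05 and none was higher, against 10.7% of the 16370 genes tested that were lower. All 27 fold changes were negative, with a median log2 fold change of -0.77, against 0.01 over all genes tested. In 24 of the 27 genes every macrophage core lay below every fibroblast core, against 15.4% of all genes tested. The call was made for 7 of 7 mevalonate enzymes, 10 of 11 enzymes from squalene to cholesterol, Stard4 and 5 of 6 fatty acid enzymes. The 4 genes not called were Fdft1 (-0.36 ± 0.11, adjusted p = 0.051), Acaca, Srebf1 and Srebf2. With the run and N code that libraries share in their titles fitted as a replicate block, Fdft1 was called as well (-0.37, adjusted p = 0.029), and DESeq2 also called it. Leaving out 1 library at a time gave 22 to 24 calls. On library totals in place of TMM every log2 difference in means moved up by 0.21. Then 25 of the 27 differences were negative, with a median of -0.60, against -0.80 with TMM, and those of Acaca and Srebf2 turned positive. On that scale 16 genes did not overlap between groups, and the share over all genes was not computed.

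In the mevalonate arm, Hmgcs1, which makes HMG-CoA, had 114, 177, 136 and 142 CPM in macrophage cores, against 284, 262, 258 and 250 CPM in fibroblast cores. The groups did not overlap, and the log2 fold change was -0.88 ± 0.12 (SE, adjusted p = 0.0029). Pmvk, phosphomevalonate kinase, had 15.4, 17.8, 14.9 and 16.4 CPM in macrophage cores, against 29.9, 24.6, 25.4 and 24 CPM in fibroblast cores (-0.67 ± 0.09, adjusted p = 0.0028). Fdps, which makes farnesyl diphosphate, had 51.3, 81.2, 54.7 and 48.1 CPM in macrophage cores, against 127, 127, 122 and 104 CPM in fibroblast cores. Its log2 fold change of -1.01 ± 0.15 was the largest fall among the 7 mevalonate enzymes, and the smallest was that of Mvk, mevalonate kinase, at -0.51 ± 0.11.

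From squalene on, Sqle, the epoxidase that commits squalene to sterols, had 65.3, 98.2, 73.1 and 76.2 CPM in macrophage cores, against 138, 146, 132 and 137 CPM in fibroblast cores (-0.81 ± 0.11, adjusted p = 0.0029). Cyp51, lanosterol demethylase, had 58.9, 95.0, 72.6 and 70.2 CPM in macrophage cores, against 134, 165, 153 and 137 CPM in fibroblast cores (-0.97 ± 0.14, adjusted p = 0.0028). In both genes macrophage replicate 2 was the highest of its group and still below every fibroblast core. Nsdhl, which removes the methyl groups left on the ring together with Msmo1 and Hsd17b7, had 19.2, 26.2, 17.3 and 18.2 CPM in macrophage cores, against 42.4, 43.4, 38.3 and 37.2 CPM in fibroblast cores (-0.98 ± 0.13, adjusted p = 0.0024). Hsd17b7 had the lowest p of the list, with 24.9, 37.1, 26.8 and 24.7 CPM in macrophage cores, against 65.3, 60.8, 57.1 and 57.3 CPM in fibroblast cores (-1.06 ± 0.13, adjusted p = 0.0017). The other called enzymes of this arm were Msmo1, Lss, Tm7sf2, Ebp, Sc5d and Dhcr7, with log2 fold changes of -0.49 to -0.87. For each of the 24 genes without overlap, including these 6 enzymes, the exact two-sided permutation test over samples gave 0.0286, the smallest p that 4 against 4 can give. This p follows from the lack of overlap and adds nothing to it. On library totals, where 16 genes did not overlap, the same test gave larger p for others, such as 0.229 for Fdft1 and 0.171 for Stard4.

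Of the fatty acid enzymes, Scd2, a desaturase that makes monounsaturated fatty acids, had 310, 507, 369 and 266 CPM in macrophage cores, against 806, 743, 741 and 678 CPM in fibroblast cores (-1.02 ± 0.18, adjusted p = 0.0074). Scd1, its paralog, had 156, 253, 171 and 132 CPM in macrophage cores, against 402, 340, 300 and 323 CPM in fibroblast cores (-0.92 ± 0.18, adjusted p = 0.011). Acly, Fasn and Elovl6, which make acetyl-CoA, palmitate and longer saturated chains, were lower by log2 fold changes of -0.49 to -0.58. Acaca, acetyl-CoA carboxylase and the first committed step of fatty acid synthesis, stood apart from its pathway. It had 84.7, 95.8, 87.9 and 84.0 CPM in macrophage cores, against 91.7, 92.9, 85.2 and 88.9 CPM in fibroblast cores, and the groups overlapped (-0.01 ± 0.07, adjusted p = 0.92). The regulators also overlapped between groups. Srebf1 had 92.1, 106, 85.5 and 73.5 CPM in macrophage cores, against 109, 98.7, 105 and 106 CPM in fibroblast cores (-0.21 ± 0.10, adjusted p = 0.15). Srebf2 had 136, 159, 131 and 112 CPM in macrophage cores, against 157, 152, 148 and 151 CPM in fibroblast cores (-0.16 ± 0.10, adjusted p = 0.26).

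**Figure D2:**
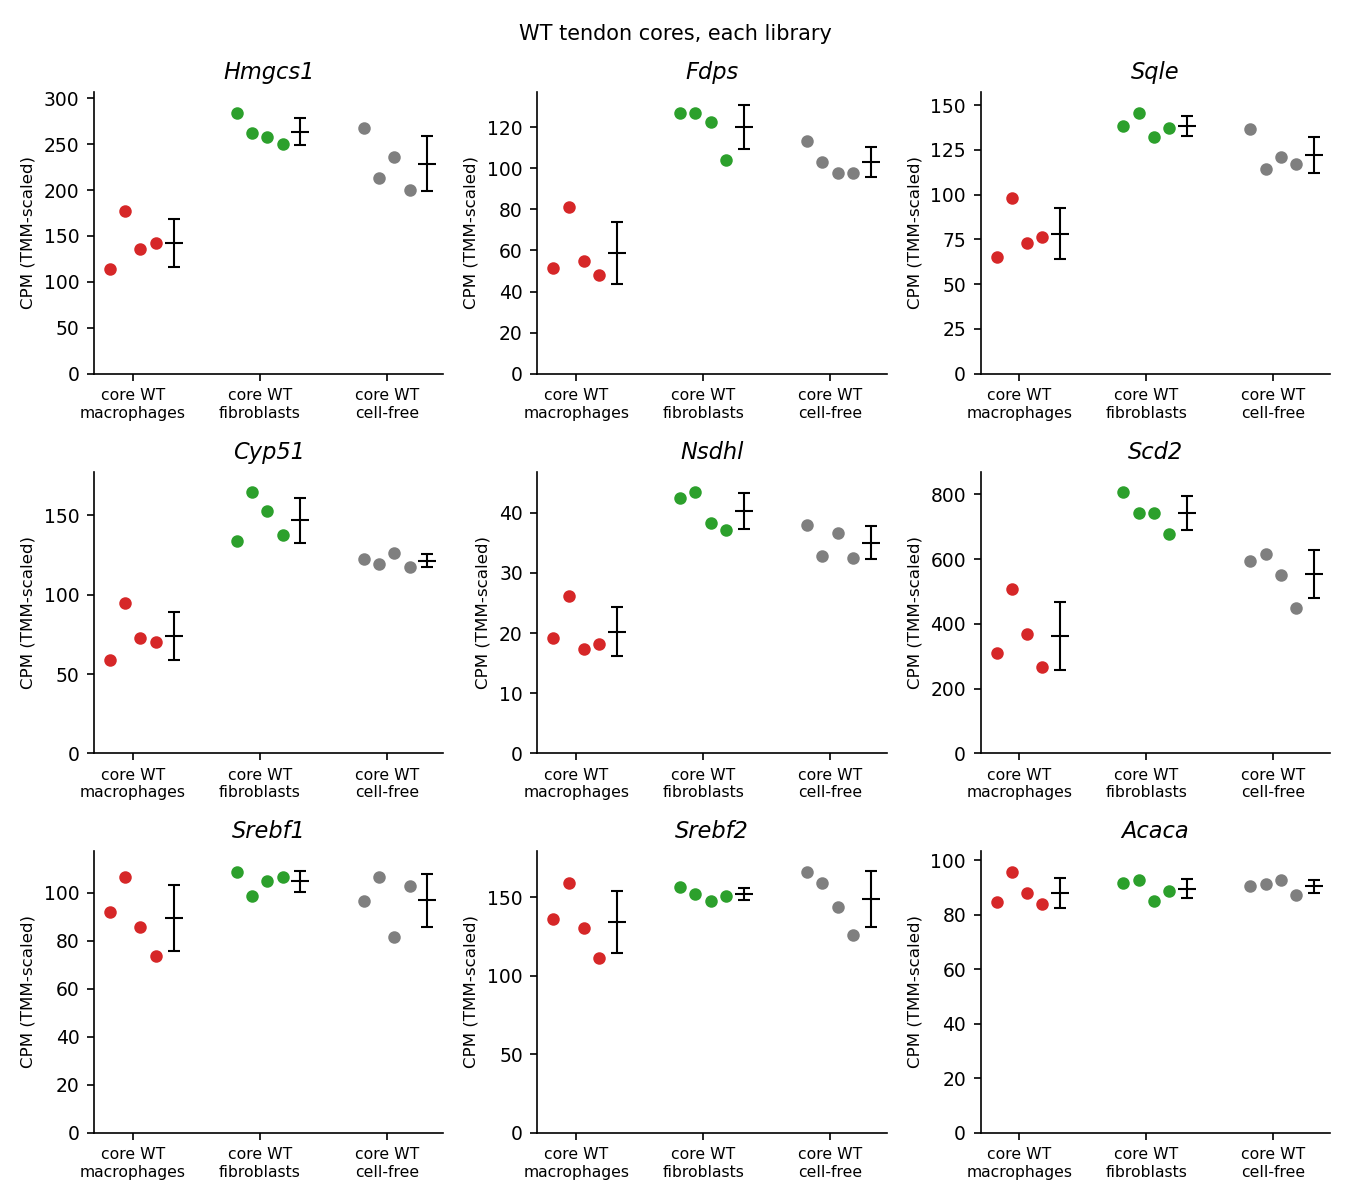
TMM-scaled CPM of 9 genes in each WT core library (points), with the mean and SD beside each group of 4. The macrophage cores lie below both other groups for Hmgcs1, Fdps, Sqle, Cyp51 and Nsdhl, and overlap them for Srebf1, Srebf2 and Acaca.

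Against WT cell-free cores the macrophage cores were lower as well, in fewer genes. Of the 27 genes 14 were lower at an adjusted p under 0.05 and none was higher, against 4.65% of the 16441 genes tested that were lower. All 27 fold changes were negative (median -0.46, against 0.01 over all genes tested), and in 15 genes the groups did not overlap, against 10.3% of all genes tested. The calls were 5 of 7 mevalonate enzymes, 7 of 11 enzymes from squalene to cholesterol, Stard4 and, of the fatty acid enzymes, Elovl6. The 2 comparisons share the macrophage cores. The number of calls rested on single libraries: it was 1 without macrophage replicate 3, 4 without macrophage replicate 1 and 4 without either cell-free replicate 1 or 2, 8 without cell-free replicate 3, and 12 to 17 without each of the others. In those fits 26 or 27 fold changes stayed negative and the median ran from -0.41 to -0.58. Within the libraries that share a run and N code in their titles, the median log2 difference was -0.77, -0.19, -0.66 and -0.55, with 22 to 27 of the 27 genes lower in the macrophage core. On library totals the differences moved up by 0.12, Acaca turned positive and the other 26 stayed negative. There 6 genes did not overlap between groups, and the share over all genes was not computed on that scale.

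Nsdhl had the lowest p of this comparison, with the macrophage values above against 38.0, 32.9, 36.6 and 32.5 CPM in cell-free cores (-0.78 ± 0.13, adjusted p = 0.0107). Cyp51 had 123, 120, 127 and 117 CPM in cell-free cores (-0.70 ± 0.13, adjusted p = 0.0145). Hmgcs1 had 267, 213, 236 and 200 CPM in cell-free cores (-0.68 ± 0.14, adjusted p = 0.025). In these 3 enzymes the highest macrophage core stayed below the lowest cell-free core. Msmo1, a sterol C4 methyl oxidase, had 56.1, 84.7, 64.9 and 67.2 CPM in macrophage cores, against 119, 102, 107 and 102 CPM in cell-free cores (-0.64 ± 0.12, adjusted p = 0.0155). Fdps had 113, 103, 97.6 and 97.8 CPM in cell-free cores (-0.79 ± 0.15, adjusted p = 0.017). Dhcr7, which carries out the last reduction to cholesterol, had 18.5, 26.8, 21.3 and 19.0 CPM in macrophage cores, against 36.7, 34.1, 38.4 and 27.8 CPM in cell-free cores (-0.67 ± 0.14, adjusted p = 0.024). Sqle had 137, 114, 121 and 117 CPM in cell-free cores (-0.63 ± 0.12, adjusted p = 0.018). Of the 7 genes in this paragraph, all but Nsdhl lost the call in at least 1 of the fits without a library.

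The fatty acid side was less clear here. Scd1 had 279, 245, 240 and 153 CPM in cell-free cores, overlapping the macrophage cores (-0.35 ± 0.22, adjusted p = 0.37). Scd2 had 595, 616, 551 and 450 CPM in cell-free cores (-0.60 ± 0.20, adjusted p = 0.11), and it passed the threshold once the shared title code was fitted as a replicate block (-0.63, adjusted p = 0.031). With that block Acat2, Mvd and Tm7sf2 passed as well (adjusted p = 0.045, 0.0496 and 0.047), and Pmvk no longer did (adjusted p = 0.062). Srebf1 (-0.10 ± 0.12), Srebf2 (-0.13 ± 0.12) and Acaca (-0.03 ± 0.07) were within their spread of cell-free cores.

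Of 17 further sterol pathway genes tested, 4 were lower in macrophage cores than in cell-free cores and none was higher (median -0.13), against 4.65% of all genes tested that were lower. The other 13 did not pass the test, and 5 of the 17 fold changes were positive. Insig1, which holds SCAP in the endoplasmic reticulum, fell by 0.53 on the log2 scale (adjusted p = 0.029). Of 18 further fatty acid genes 5 were lower than in cell-free cores and none was higher (median -0.31), and the lowest p were those of Acsl1, Elovl1 and Acsl3 with -0.71, -0.48 and -0.51. Against fibroblast cores, where 10.7% of all genes tested were lower, 6 of 17 further sterol pathway genes were lower and 1 was higher (median -0.21), and 11 of 17 further fatty acid genes were lower and none higher (median -0.40). Of 11 genes of sterol efflux and oxysterols 2 were higher and 2 lower than in cell-free cores, against 1.03% and 4.65% of all genes tested. Their median log2 fold change was -0.11, with 5 positive and 6 negative. Apoe, which carries cholesterol out of cells and is abundant in macrophages, was higher by 2.68 ± 0.46 (adjusted p = 0.011), and Cyp27a1, a sterol hydroxylase, by 0.87 ± 0.16 (adjusted p = 0.0143). Ch25h, which makes 25-hydroxycholesterol, had 14.1, 23.7, 10.8 and 9.84 CPM in macrophage cores, against 64.2, 81.8, 58.1 and 149 CPM in cell-free cores (-2.58 ± 0.36, adjusted p = 0.0050). These lists were chosen with earlier results of the data known.

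Marker lists of other cell types were read beside the shares over all genes tested. Of all genes, 8.85% were higher and 10.7% lower than in fibroblast cores, and 1.03% higher and 4.65% lower than in cell-free cores. A count of 1 of 10 markers is near the shares against fibroblast cores. Against fibroblast cores, 1 of 10 macrophage markers was higher in macrophage cores (Csf1r, 0.84 ± 0.22) and 2 were lower (Cd14, -1.12 ± 0.21, and Itgam, -1.09 ± 0.21), with a summed level of 4909 to 11194 CPM in macrophage cores, against 8599 to 9180 CPM in fibroblast cores. Of 6 proliferation genes 5 were lower (median -0.90), and their summed level ran from 69.9 to 137 CPM in macrophage cores, against 143 to 236 CPM in fibroblast cores. Of 10 fibroblast and tenocyte markers 1, Scx, was lower (-1.04 ± 0.22), and 7 fold changes were negative (median -0.65). Against cell-free cores, 2 of 10 macrophage markers were lower and none higher, with Itgam at -1.55 ± 0.25 and Cd14 at -1.39 ± 0.33. Of the proliferation genes 5 of 6 were lower (median -1.49), with a summed level of 198 to 439 CPM in cell-free cores, and none of the fibroblast and tenocyte markers passed the test. The summed adipocyte markers ran from 60.6 to 103 CPM in macrophage cores, against 125 to 268 CPM in cell-free cores, and 1 of 4 tested was lower. Of 4 endothelial markers tested, Kdr was lower in macrophage cores and Pecam1 higher in both comparisons, with -2.04 and 1.68 against cell-free cores and -1.12 and 1.90 against fibroblast cores. Pecam1 stayed under 1 CPM in every WT cell-free core and every WT fibroblast core. Of the muscle markers 1 of 3 tested, Myh4, was higher than in cell-free cores, and of the Schwann cell markers 1 of 5 tested, Mbp, was higher than in fibroblast cores (0.49 ± 0.06). The part of these differences in the fall of the lipid synthesis genes was not tested.

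Whether fibroblasts in the hydrogel changed lipid synthesis genes in the core was asked in both genotypes. The WT comparison uses the same fibroblast and cell-free cores as the comparisons with macrophage cores. In WT cores 26 of the 27 fold changes were positive with fibroblasts, with a median of 0.22 against -0.02 over all genes tested, but they were small. At an adjusted p under 0.05, 2 genes were higher and none lower, against 2.46% of the 16188 genes tested that were higher. At an unadjusted p under 0.05, 15 genes were higher and none lower, against 10.9% of all genes. DESeq2 called 10 genes higher, against 6.06% of its genes. In 9 genes the groups did not overlap, against 5.68% of all genes. The number called was 0 without fibroblast replicate 1, 3 or 4, 1 without any of cell-free replicates 1 to 3 or fibroblast replicate 2, and 5 without cell-free replicate 4. Within title codes the median log2 difference was 0.16 to 0.30, with 23 to 25 of 27 genes higher. On library totals 20 of 27 differences in means were positive, against 24 with TMM. There 2 genes did not overlap between groups, and the share over all genes was not computed on that scale.

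The 2 genes called were Ebp, sterol isomerase, and Acat2, which joins acetyl-CoA units at the head of the mevalonate arm. Ebp had 41.4, 38.9, 43.1 and 43.9 CPM in WT fibroblast cores, against 35.0, 31.7, 29.9 and 35.4 CPM in WT cell-free cores (0.36 ± 0.07, adjusted p = 0.032). Acat2 had 34.8, 40.6, 35.9 and 33.9 CPM in fibroblast cores, against 28.2, 27.7, 31.4 and 24 CPM in cell-free cores (0.40 ± 0.09, adjusted p = 0.046). The groups did not overlap in either gene. The highest fold change was that of Scd1 at 0.59 ± 0.17 (adjusted p = 0.080), with the values given above, followed by Tm7sf2 at 0.47 ± 0.13 and Scd2 at 0.44 ± 0.12 (adjusted p = 0.063). All 4 fibroblast cores lay above all 4 cell-free cores in Scd1 and Scd2. Hmgcs1 (0.22 ± 0.10, adjusted p = 0.23) and Sqle (0.19 ± 0.07, adjusted p = 0.15) did not pass the test. Srebf1 (0.13 ± 0.08) and Srebf2 (0.05 ± 0.09) did not pass it either. Macrophage markers were lower in fibroblast cores for 3 of 10 genes, against 1.83% of all genes tested that were lower. Col3a1, a fibroblast collagen, was higher by 1.09 ± 0.21. The part of either in these differences was not tested.

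**Figure D3:**
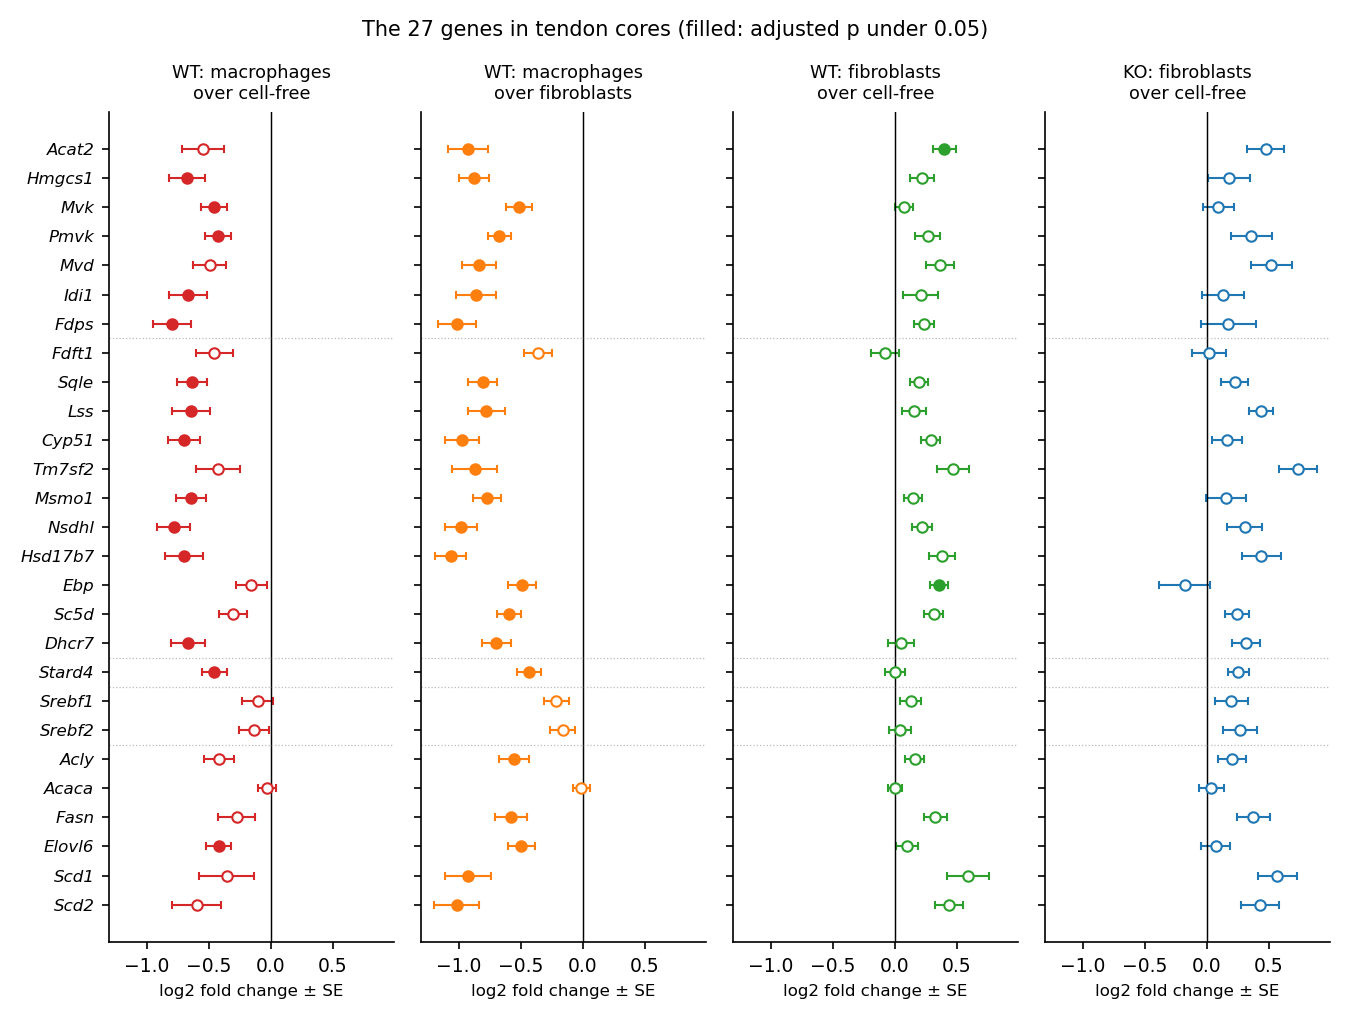
Log2 fold change with SE of each of the 27 genes in 4 comparisons of cores, ordered by role from the mevalonate arm (top) to fatty acid synthesis (bottom). Filled points passed an adjusted p of 0.05: 14 and 23 genes in the macrophage comparisons, 2 and 0 in the fibroblast comparisons.

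In cores labelled KO the same comparison gave 26 of 27 positive fold changes with a median of 0.24, against -0.02 over all genes. None was called by edgeR at an adjusted p under 0.05, against 0.301% of the 15965 genes tested that were higher. At an unadjusted p under 0.05, 11 were higher and none lower, against 5.66% of all genes, and DESeq2 called 3 higher, against 2.04%. In 7 genes the groups did not overlap, against 3.78%. With the title code as a replicate block 2 genes were called higher, against 1.4% of all genes, Tm7sf2 and Mvd. Tm7sf2, a sterol reductase, had 38.1, 32, 22.9 and 28.9 CPM in fibroblast cores labelled KO, against 19.2, 18.9, 18.2 and 16.2 CPM in cell-free cores labelled KO (0.74 ± 0.15, adjusted p = 0.072, and 0.024 with the block). Lss, which closes squalene epoxide to lanosterol, had 133, 125, 104 and 115 CPM in fibroblast cores, against 89.5, 85.3, 87.0 and 88.6 CPM in cell-free cores (0.44 ± 0.10, adjusted p = 0.083). Neither gene overlapped between groups. Scd1 had 428, 383, 288 and 306 CPM in fibroblast cores, against 263, 246, 235 and 197 CPM in cell-free cores (0.57 ± 0.16, adjusted p = 0.16), and Scd2 was at 0.43 ± 0.15. Hmgcs1 (0.18 ± 0.17), Sqle (0.23 ± 0.11), Srebf1 (0.20 ± 0.13) and Srebf2 (0.27 ± 0.14) did not pass the test.

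In cell-free cores labelled KO, replicate 1 was the highest of its group for 20 of the 27 genes. For Fdps it had 155 CPM, against 76.5, 88.9 and 86.3 CPM in the other 3 libraries. It also had 2.65 CPM of the adipocyte marker Adipoq, which was at or under 0.148 CPM in the other 3, and the highest macrophage marker sum of its group at 18168 CPM. Without this library the median log2 fold change with fibroblasts was 0.34 and none of the 27 genes was called.

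Whether the genotypes differed was tested in fibroblast cores, cell-free cores and hydrogels. None of the 27 genes was called by edgeR or DESeq2 in any of the 3. In fibroblast cores labelled KO against WT the count was 0, against 0% of all 16088 genes tested, and at an unadjusted p under 0.05 it was 1, against 8.88%. That gene was Ebp, with 32.8, 34.8, 33.0 and 38.3 CPM in fibroblast cores labelled KO, against 41.4, 38.9, 43.1 and 43.9 CPM in WT fibroblast cores (-0.27 ± 0.07, adjusted p = 0.46). Lss had the next lowest p (0.15 ± 0.09, adjusted p = 0.66). In cell-free cores labelled KO against WT the count was 0, against 0% of 16065 genes, and at an unadjusted p under 0.05 also 0, against 2.11%. The lowest p there were those of Dhcr7 (-0.22 ± 0.13) and Stard4 (-0.14 ± 0.09), both at an adjusted p of 1.00. In hydrogels around cores labelled KO against WT the count was 0, against 0% of 15227 genes, and at an unadjusted p under 0.05 also 0, against 2.65%.

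Scd1 and Srebf2 had the lowest p between hydrogels. Scd1 had a lowest, median and highest value of 186, 231 and 245 CPM in hydrogels around cores labelled KO, against 176, 216 and 235 CPM in hydrogels around WT cores (0.10 ± 0.09). Srebf2 had 113, 130 and 165 CPM in hydrogels around cores labelled KO, against 121, 149 and 180 CPM in hydrogels around WT cores (-0.12 ± 0.10). Both genes overlapped widely between groups. The hydrogel replicate 5 around a core labelled KO was the lowest of its group for 23 of the 27 genes, with 64.7 CPM of Fdps where the other 5 had 102 to 190 CPM. It also had the lowest macrophage marker sum, 2067 CPM, against 9363 CPM or more in hydrogels around WT cores. The hydrogel around a WT core with the same title code, also replicate 5, was the lowest of its group for 19 of the 27 genes. No gene was called when either library was left out.

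The difference between the 2 fibroblast effects, KO minus WT, was tested as an interaction over the 4 groups of KO and WT cores. None of the 27 genes was called by edgeR or DESeq2, against 0% of the 16772 genes tested. At an unadjusted p under 0.05 there were 2, against 3.01%: Ebp (-0.55 ± 0.23) and Stard4, a carrier of cholesterol between membranes (0.25 ± 0.12), both at an adjusted p of 0.985.

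Hydrogels were also compared with the fibroblast cores they surrounded. In WT assembloids 7 of the 27 genes were lower in the hydrogel, against 35.4% of the 16037 genes tested, and 1 was higher, against 33.9%. In assembloids labelled KO 4 were lower, against 30.2% of 16084 genes, and none higher, against 25.5%. With the shared title code as a replicate block, which leaves out the hydrogels without a matching core, 10 were lower and 5 higher in WT, against 37.2% and 37.6%. With the block in assembloids labelled KO, 7 were lower and 2 higher, against 33.6% and 34%. No test of a difference in these shares was made.

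Acaca, Lss, Sc5d and Scd1 were lower in hydrogels around cores of both genotypes. Scd1 had a lowest, median and highest value of 176, 216 and 235 CPM in WT hydrogels, against 402, 340, 300 and 323 CPM in WT fibroblast cores (-0.75 ± 0.09, adjusted p = 2.8e-05). In hydrogels labelled KO it was also lower than in the cores (-0.67 ± 0.13, adjusted p = 0.0012). Acaca had 61.0, 68.9 and 73.5 CPM in WT hydrogels, below all WT fibroblast cores (-0.44 ± 0.05, adjusted p = 2.3e-05), and the fold change in assembloids labelled KO was -0.49 ± 0.06 (adjusted p = 0.00015). Sc5d, the desaturase of the sterol ring, had 81.1, 95.4 and 99.8 CPM in WT hydrogels, against 136, 135, 132 and 129 CPM in WT fibroblast cores (-0.55 ± 0.05, adjusted p = 5.1e-06). In assembloids labelled KO its fold change was -0.45 ± 0.08 (adjusted p = 0.00097). Lss was lower by -0.47 ± 0.08 in WT (adjusted p = 0.000197) and by -0.56 ± 0.18 in assembloids labelled KO (adjusted p = 0.020). The call of Lss in assembloids labelled KO was lost without core replicate 1 or 2.

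In WT assembloids Hmgcs1 (-0.27 ± 0.07, adjusted p = 0.0053), Tm7sf2 (-0.38 ± 0.10, adjusted p = 0.0057) and Scd2 (-0.37 ± 0.10, adjusted p = 0.0069) were lower in hydrogels too. Dhcr7 was the 1 gene that was higher, with 35.6, 42.5 and 56.0 CPM in WT hydrogels, against 37.9, 36.9, 32.3 and 33.3 CPM in WT fibroblast cores (0.28 ± 0.11, adjusted p = 0.037). It is named after its values were seen, and its groups overlapped. No gene was called higher without hydrogel replicate 1 or 2 or without core replicate 3 or 4, and 3 were called higher without hydrogel replicate 5. In assembloids labelled KO Hmgcs1 was at -0.19 ± 0.13 and Scd2 at -0.30 ± 0.15, short of the threshold without the block and, for Scd2, past it with the block (adjusted p = 0.023). Sqle, at -0.07 ± 0.07 in WT and -0.05 ± 0.17 in assembloids labelled KO, and Srebf1, at 0.09 ± 0.07 and 0.08 ± 0.14 in the same order, did not pass the test. Srebf2, at -0.08 ± 0.09 in WT and -0.23 ± 0.12 in assembloids labelled KO, passed it only with the block (-0.17, adjusted p = 0.024 in WT and -0.20, adjusted p = 0.030 in assembloids labelled KO). For the marker counts that follow, 33.9% of all genes tested were higher and 35.4% lower in WT hydrogels. In hydrogels labelled KO these shares were 25.5% and 30.2%. Of the macrophage markers 7 of 10 were higher in WT hydrogels and 0 of 10 passed the test in assembloids labelled KO, where all 10 fold changes were positive. Of the proliferation genes 6 of 6 were higher in WT hydrogels and 4 of 6 in hydrogels labelled KO, and of the fibroblast and tenocyte markers 7 and 4 of 10 were lower in the same order. Of 5 Schwann cell markers tested, 3 were higher and 1 lower in hydrogels around cores of both genotypes. Sox10 led with 4.87 ± 0.40 in WT and 4.67 ± 0.53 in assembloids labelled KO. Sox10 stayed under 1 CPM in every WT fibroblast core. Of 4 adipocyte markers tested, Pparg and Fabp4 were higher in both genotypes. Of 4 endothelial markers tested, 1 was higher and 1 lower in WT, and 1 lower in assembloids labelled KO. Of 4 muscle markers tested 1 was lower in both genotypes, and of 2 sebocyte markers tested 1 was higher in both and 1 lower in assembloids labelled KO. The part of these in these differences was not tested. The hydrogel and the core differ in tissue, donor mix and passage at once. In assembloids labelled KO they also differ in genotype, because the seeded cells were wildtype. These cannot be told apart.

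**Figure D4:**
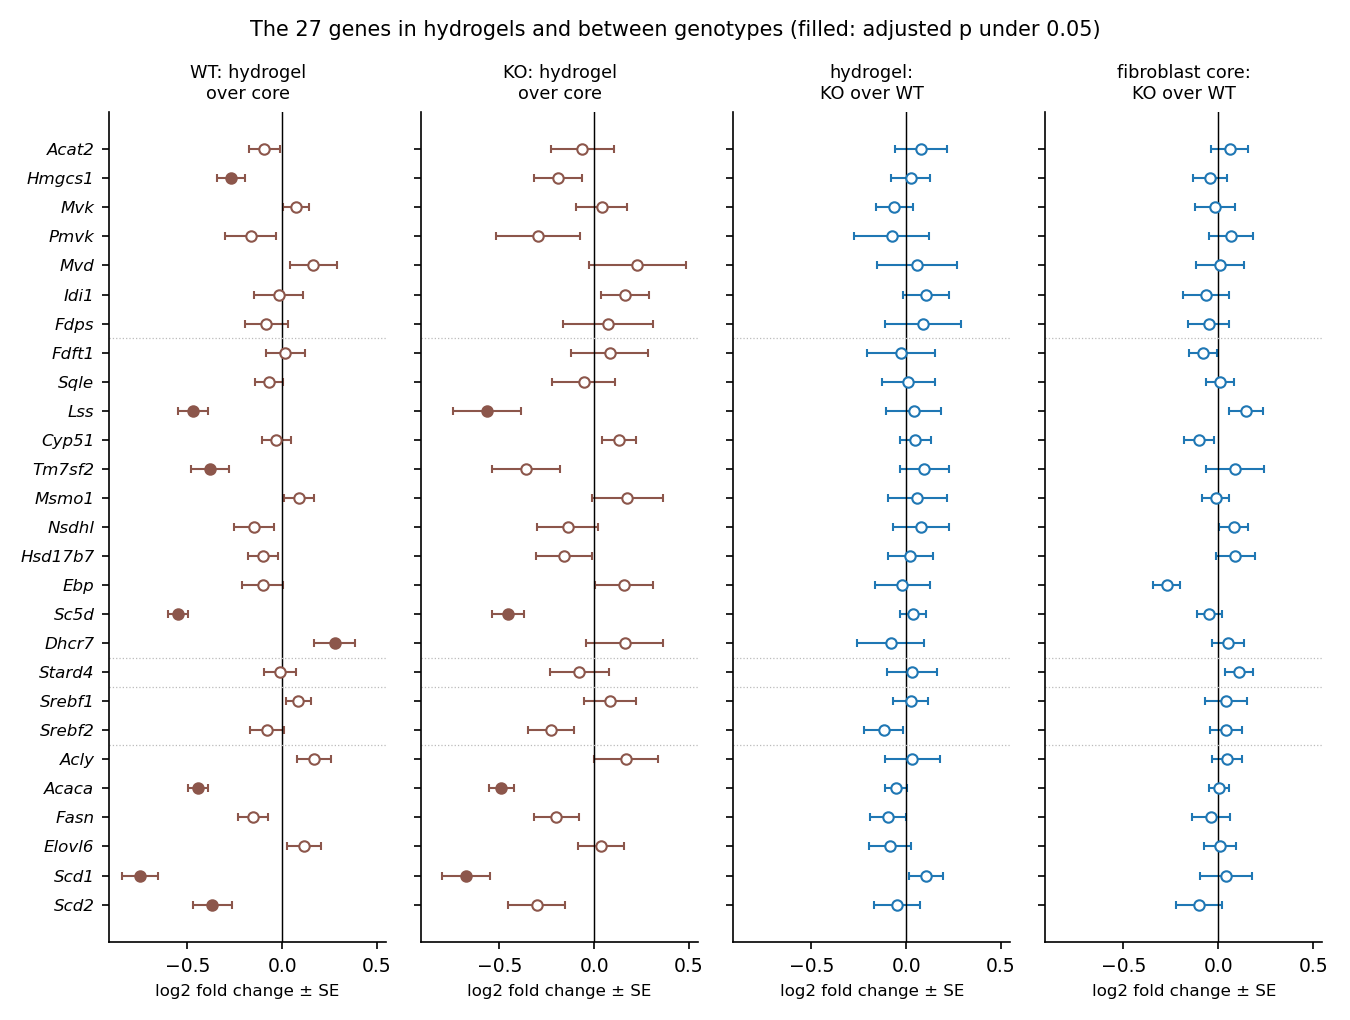
Log2 fold change with SE of each of the 27 genes in hydrogels against their cores (left 2 panels) and between genotypes (right 2 panels), ordered by role. Filled points passed an adjusted p of 0.05: 8 and 4 genes between hydrogel and core, none between genotypes.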

How the data were processed

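RNA-seq was run on 20 core and 12 hydrogel libraries (ribosomal RNA depleted, stranded). Per the study's methods all hydrogel pools, but only part of the core pools, passed its limits on RNA integrity and concentration. The part of RNA quality in the differences was not tested. Per the submitters' processing notes the authors quantified reads with kallisto 0.46.1 on GRCm39, and the deposited values are estimated counts per gene, not normalized. Which annotation release they used is not stated. Estimated counts were rounded to whole numbers, filtered with filterByExpr, scaled by TMM and tested with edgeR 4.0.16 (R 4.3.3, quasi-likelihood, Benjamini-Hochberg over all genes tested, adjusted p under 0.05, no fold threshold), on the groups compared only. CPM values use TMM factors estimated over all 32 libraries together. Differences in mean log2 CPM can therefore depart from the edgeR fold changes. For WT fibroblast against cell-free cores, 24 such differences were positive, against 26 fold changes. Single values were also tested by an exact two-sided permutation over samples. Depth was 20360289 to 59860703 counts per library. Groups came from the labels, and no 2 replicates of a group agreed within sampling noise. DESeq2 1.42.0, RLE scaling, other filters, fold thresholds, blocks, 1 fit over 5 core groups and leaving out each library were alternatives. The scripts were tested on simulated data.

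Values of every sample were given for Hmgcs1, Sqle, Scd1, Scd2, Srebf1 and Srebf2 and for up to 6 called genes with the lowest p in a comparison (2 where none was called), and up to 3 genes of each further list were named. Some genes of these lists are not reported here. The genes and lists were chosen with earlier results of these data known. Marker lists of other cell types were summed and tested in the same fits.

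Titles carry a run and N code, and per the study's methods a hydrogel holds cells that left the core of the same mouse. Libraries sharing a code deviated together, with every correlation above 0.1, in 6 of 9 pairwise comparisons: 0.21 to 0.39 for KO fibroblast against cell-free cores, 0.19 to 0.34 and 0.17 to 0.25 for macrophage against cell-free and fibroblast cores, 0.26 to 0.60 between hydrogels, and 0.25 to 0.35 (WT) and 0.24 to 0.45 (KO) between hydrogel and core.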

Additional observations from a re-analysis of the deposited data

Results flagged for a closer look

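Of 189 groups of 4 or 6 libraries (27 genes in 7 groups), 15 had 1 library farther from the others than Dixon's 95% limit, where chance gives about 1 in 20. Cell-free core replicate 1 labelled KO held 5 of them, as the highest library for Ebp (58.4 CPM), Fdps (155 CPM), Hmgcs1 (303 CPM), Mvd (37.3 CPM) and Sc5d (117 CPM), and replicate 4 of that group was the highest for Elovl6 (70.5 CPM). Macrophage core replicate 2 held 5, as the highest library for Hsd17b7 (37.1 CPM), Idi1 (10.3 CPM), Mvd (29.8 CPM), Mvk (24.9 CPM) and Sc5d (106 CPM). Hydrogel replicate 5 around a WT core was the lowest library for Hmgcs1 (186 CPM), Msmo1 (101 CPM) and Nsdhl (26.9 CPM). WT fibroblast core replicate 1 was the highest for Fasn (376 CPM).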

How the results depend on the processing

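Among the recomputed counts of called genes, 149 stayed within 1.5 times the reported count and 34 did not. The 149 include fits of the genotype comparisons and the interaction in which a reported count of 0 stayed at 0. For WT fibroblast against cell-free cores (2 reported) the count was 10 with DESeq2, 4 with no filter, 0 with a log2 fold change beyond 0.5 at an adjusted p, 1 at an unadjusted p, 7 with the replicate block, 8 with the run code as block, 0 with all 5 core groups in 1 fit, and 0 to 5 without 1 library. For the same comparison in cores labelled KO (0 reported) it was 3 with DESeq2, 3 at an unadjusted p with the fold threshold, 2 with the replicate block, 1 with the run block, 1 with all core groups, and 0 to 1 without 1 library. Macrophage against cell-free cores gave 1 to 17 without 1 library, and against fibroblast cores 22 to 24. Between hydrogel and core the count was 2 with either fold threshold in both genotypes and, with the replicate block, 15 in WT (8 reported) and 9 in assembloids labelled KO (4 reported); without 1 library it was 7 to 10 and 3 to 5. The interaction gave 1 at an unadjusted p with the fold threshold. The genotype comparisons gave 0 in every fit without 1 library. Libraries sharing a code had correlations of 0.07 to 0.42 for WT fibroblast against cell-free cores, all positive but not all above 0.1. Between the genotypes in cores they were -0.18 to 0.50 with fibroblasts and -0.00 to 0.45 cell-free. Whether the codes pair libraries in these comparisons is not settled by these values.

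Log2 values near 0 changed sign. Srebf2, fibroblasts against cell-free in WT cores, was -0.011 to 0.10 without 1 library (-0.011 without cell-free replicate 4) and -0.050 on library totals. Srebf2, macrophages against fibroblasts, was 0.019 on library totals. Srebf1, hydrogel against core labelled KO, was -0.0013 (without core replicate 3) to 0.21 without 1 library and -0.0013 on library totals. Sqle in that comparison was 0.037 with no filter and -0.13 to 0.056 without 1 library (0.0079 without core replicate 4 and 0.056 without hydrogel replicate 5). The causes were not tested.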
